A study of Danio rerio with 6 samples.

Results

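The genes described here are 10 genes of glycogen synthase kinase 3 (GSK3) and the canonical Wnt/β-catenin pathway, *gsk3bb*, *gsk3ba*, *gsk3ab*, *ctnnb1*, *ctnnb2*, *axin1*, *axin2*, *apc*, *tcf7l2* and *lef1*, among the 15419 gene symbols counted in the gut of germ-free zebrafish larvae. They were chosen by symbol, and all 10 were found and had enough counts to be among the 11062 genes tested. The starting point of the choice was *gsk3bb*, which was picked from its low counts in *il26*-/- germ-free (GF) larvae, so its difference between the groups is given as a description without a test. The other 9 genes were chosen for their roles in the same pathway, and their own fold changes were not part of the rule. Earlier results of these data were, however, known when the choice was made. The tissue was the dissected gut at 5 days post-fertilization (dpf), taken from 3 *il26*-/- GF and 3 WT GF replicates, with 10 to 15 guts pooled in each. The *il26*-/- line was made by CRISPR/Cas9 and is mutant for the gene of the cytokine IL-26 in all cells, and the wild type of the study is the AB strain. The parents of both groups were clutchmates housed apart by genotype. Eggs of both groups were bleached, and the larvae were raised without microbes in sterile medium with ampicillin, kanamycin, ceftazidime and chloramphenicol, so the comparison asks how gene expression in the gut differs between the groups in the absence of a microbiota. The parents' tank and the genotype cannot be told apart.

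GSK3 is a serine/threonine kinase that works in the β-catenin destruction complex, where Axin and the tumor suppressor APC hold β-catenin so that it is phosphorylated and then degraded. When a Wnt ligand binds its receptors the complex is inhibited, β-catenin builds up and enters the nucleus, and there it acts with the DNA-binding factors TCF and LEF on target genes. In the vertebrate intestine this pathway is known for maintaining proliferating progenitors, and mutation of *apc* is a classic route to intestinal tumors. Zebrafish kept duplicates of many of these genes after the genome duplication of teleost fish, so that *gsk3aa* and *gsk3ab* are the counterparts of mammalian GSK3A, *gsk3ba* and *gsk3bb* of GSK3B, and *ctnnb1* and *ctnnb2* both encode β-catenin. No coordinates or sequences are given for these genes. In the GRCz12tu assembly, *gsk3bb* and *lef1* are on chromosome 1, *gsk3ba* on 9, *gsk3ab* and *ctnnb1* on 16, *ctnnb2* on 19, *axin1* and *axin2* on 3, *apc* on 10 and *tcf7l2* on 12, and none is on chromosome 4 with *il26*.

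Levels are given as CPM (counts per 1000000 counts), that is the deposited read counts of a gene relative to the library's total count after scaling by the TMM method. They are not divided by gene length, so a gene is compared between groups and not with another gene. Where levels of genes are summed, ranked or given as a share, this is in reads and not in transcripts. The libraries held between 7528412 and 38143258 counts, and 3 counts corresponded to between 0.0765 and 0.369 CPM. The *il26* gene had 0 counts in all 6 libraries, so the genotypes could not be checked from it and libraries are named by their labels. The gut epithelial marker *cldn15la* was at 570 to 676 CPM in *il26*-/- GF and 563 to 652 CPM in WT GF. Some genes used by nearly every cell had almost no counts in any library, among them *csnk1a1*, which encodes the casein kinase of the destruction complex and had 0 or 1 counts in each, and the epithelial marker *epcam* likewise. A count near 0 is therefore not read as absence of the transcript. The counting tool and its treatment of reads shared between paralogs are not given in the sources used here, so the split of counts between duplicated genes is uncertain. In pooled tissue, fewer cells of a type and less RNA per cell cannot be told apart. The p-values weigh the difference between the groups against the differences among these pooled libraries, and do not cover variation between the parents' tanks.

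*gsk3bb* had 2, 9 and 3 counts in *il26*-/- GF replicates 1, 2 and 3, against 30, 42 and 62 counts in WT GF replicates 1, 2 and 3. Scaled for depth, these were 0.246, 0.230 and 0.189 CPM in *il26*-/- GF and 1.48, 2.13 and 2.02 CPM in WT GF. All 3 *il26*-/- GF libraries lay below all 3 WT GF libraries, including *il26*-/- GF replicate 2, which was the deepest of the 6. The exact 95% Poisson interval of each count, which covers counting error only, reached up to 0.889, 0.436 and 0.551 CPM in *il26*-/- GF and down to 0.999, 1.53 and 1.55 CPM in WT GF. These intervals describe the depth behind the same counts from which the gene was picked and are no test of the difference. The means were 0.221 ± 0.0296 CPM in *il26*-/- GF and 1.88 ± 0.347 CPM in WT GF (SD, n = 3 each). The log2 fold change was -3.06 (SE 0.32), the 10th largest in size among all genes tested. From the pooled counts, 14 in *il26*-/- GF and 134 in WT GF, the level was 8.56-fold lower in *il26*-/- GF, which describes the counts from which the gene was picked. The gene was low in both groups, its mean over the 6 libraries standing at the 7.32 percentile of the genes tested.

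The other GSK3 genes did not follow *gsk3bb*. *gsk3ba*, its duplicate, had 55.7, 59.9 and 63.0 CPM in *il26*-/- GF and 61.7, 58.2 and 58.7 CPM in WT GF, so that the groups overlapped and their means were both 59.5 CPM. Its log2 fold change was 0.0010 (SE 0.09, 95% confidence interval -0.20 to 0.20, adjusted p = 1.00, edgeR's quasi-likelihood test). *gsk3ab* had 41.5, 48.1 and 46.4 CPM in *il26*-/- GF and 44.7, 49.7 and 49.7 CPM in WT GF, giving a log2 fold change of -0.08 (95% confidence interval -0.30 to 0.14, adjusted p = 1.00, same test). The remaining GSK3 gene in the counts, *gsk3aa*, is a paralog outside the 10 genes and had 10.2, 9.01 and 9.43 CPM in *il26*-/- GF and 9.28, 9.72 and 10.1 CPM in WT GF (log2 fold change -0.03, SE 0.11). In all 3 genes the values of the groups interleaved.

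Whether these paralogs were higher where *gsk3bb* was lower was asked with their summed level. *gsk3aa*, *gsk3ab* and *gsk3ba* together had 107, 117 and 119 CPM in *il26*-/- GF and 116, 118 and 118 CPM in WT GF. The mean was 114 ± 6.17 CPM in *il26*-/- GF and 117 ± 1.45 CPM in WT GF (SD, n = 3 each), a difference of -2.85 CPM that was smaller than the spread within *il26*-/- GF (two-sided exact permutation test over the 6 libraries, p = 0.7, where the smallest p this design allows is 0.1). No higher summed level was therefore detected. The *gsk3bb* level was 1.66 CPM lower in *il26*-/- GF than in WT GF, which is 1.41% of the summed level of the other 3 genes in WT GF. A matching increase of those genes in CPM would be a log2 change of 0.020, less than the spread between replicates, and so could not have been seen here. These values are in reads, whose split between duplicates is uncertain, and do not give the share of *gsk3bb* in GSK3 transcripts. *gsk3bb* took 0.229%, 0.196% and 0.158% of all reads counted on the 4 GSK3 genes in the *il26*-/- GF libraries and 1.26%, 1.78% and 1.68% in the WT GF libraries. With *gsk3bb* included, the sum of the 4 genes was 115 ± 6.15 CPM in *il26*-/- GF and 119 ± 1.77 CPM in WT GF (SD, n = 3 each).

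**Figure D1:**
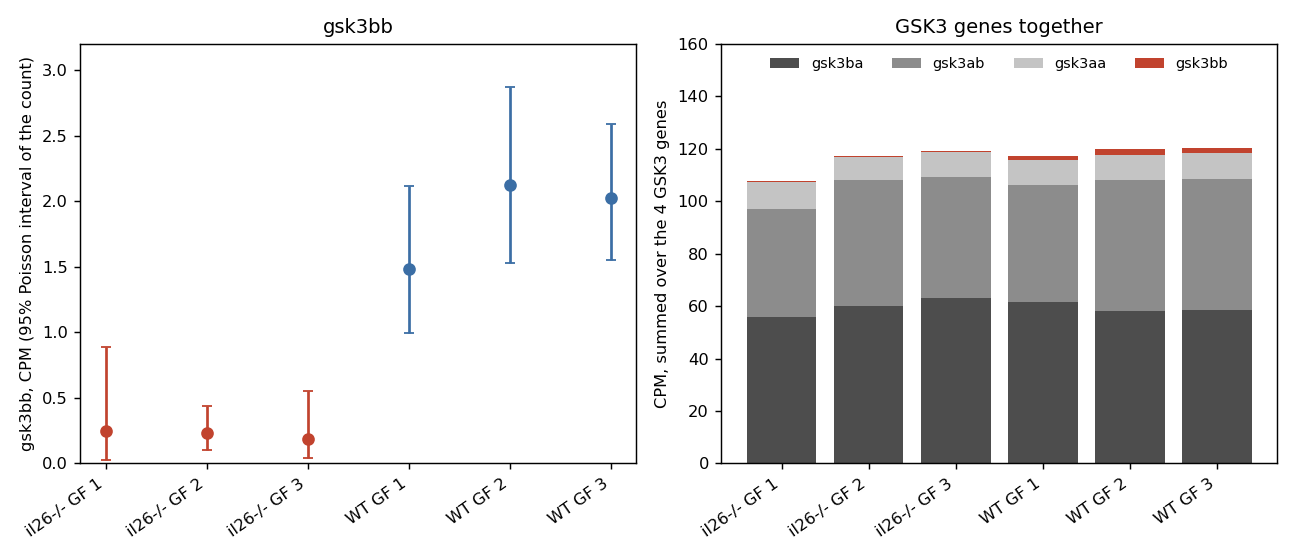
The left panel shows the *gsk3bb* level in CPM for each library with the exact 95% Poisson interval of its count, and the right panel stacks the CPM of the 4 GSK3 genes for the same libraries, *il26*-/- GF in red on the left and WT GF in blue in the left panel. The 3 *il26*-/- GF libraries sit at 0.189 to 0.246 CPM, below the WT GF libraries at 1.48 to 2.13 CPM, while *gsk3bb* is a sliver of the stacks, whose heights lie close to each other.

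The β-catenin genes had similar levels in both groups. *ctnnb1* had 207, 213 and 211 CPM in *il26*-/- GF and 193, 199 and 213 CPM in WT GF, with the highest WT GF library at the level of the *il26*-/- GF libraries. Its log2 fold change was 0.06 (95% confidence interval -0.14 to 0.27, adjusted p = 1.00, edgeR's quasi-likelihood test). *ctnnb2* had 102, 105 and 90.3 CPM in *il26*-/- GF and 99.6, 101 and 94.2 CPM in WT GF, and its log2 fold change was 0.01 (95% confidence interval -0.21 to 0.23, adjusted p = 1.00). The share of *ctnnb2* in the counts of both genes was 31.98% ± 1.77 in *il26*-/- GF and 32.8% ± 1.88 in WT GF (SD, n = 3 each, two-sided exact permutation test p = 0.5).

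Among the scaffolds of the destruction complex, *axin1* had 46.0, 57.8 and 55.2 CPM in *il26*-/- GF and 50.6, 52.9 and 56.7 CPM in WT GF, giving a log2 fold change of -0.01 (95% confidence interval -0.26 to 0.25, adjusted p = 1.00, edgeR's quasi-likelihood test). *axin2*, which besides its role as a scaffold is itself a widely used transcriptional target of Wnt signaling, had 15.3, 14.1 and 16.2 CPM in *il26*-/- GF and 16.1, 10.2 and 14.6 CPM in WT GF. WT GF replicate 2 was the lowest library for *axin2* and the remaining 5 lay between 14.1 and 16.2 CPM, so the groups overlapped. Its log2 fold change was 0.15 (SE 0.18, 95% confidence interval -0.26 to 0.56, adjusted p = 1.00), and the interval includes a difference of 1.48-fold in *il26*-/- GF at its upper end. *apc* had 78.8, 88.1 and 92.0 CPM in *il26*-/- GF and 98.3, 89.4 and 91.5 CPM in WT GF. The fitted log2 fold change was -0.11 (95% confidence interval -0.33 to 0.12, adjusted p = 1.00). For these genes too the groups overlapped.

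The transcription factor genes differed in how closely their replicates matched. *tcf7l2*, which encodes the TCF known for maintaining the intestinal epithelium in mice, had 23.9, 29.2 and 30.1 CPM in *il26*-/- GF and 29.3, 24.3 and 27.7 CPM in WT GF (log2 fold change 0.04, 95% confidence interval -0.25 to 0.32). *lef1* had 7, 90 and 19 counts in *il26*-/- GF and 18, 14 and 27 counts in WT GF, or 0.861, 2.30 and 1.19 CPM in *il26*-/- GF and 0.888, 0.709 and 0.881 CPM in WT GF. *il26*-/- GF replicates 2 and 3 lay above all WT GF libraries and replicate 1 lay among them. The log2 fold change of *lef1* was 0.93 (SE 0.38, 95% confidence interval 0.05 to 1.81), with an unadjusted p = 0.0405 and an adjusted p = 0.891 by edgeR's quasi-likelihood test. Without *il26*-/- GF replicate 2, its log2 fold change was 0.35 (unadjusted p = 0.346, edgeR's quasi-likelihood test), and without WT GF replicate 1, 2 or 3 its unadjusted p was 0.0703, 0.0936 or 0.0678 by the same test. The size of the *lef1* difference thus rested mostly on *il26*-/- GF replicate 2, and it did not pass the adjustment.

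**Figure D2:**
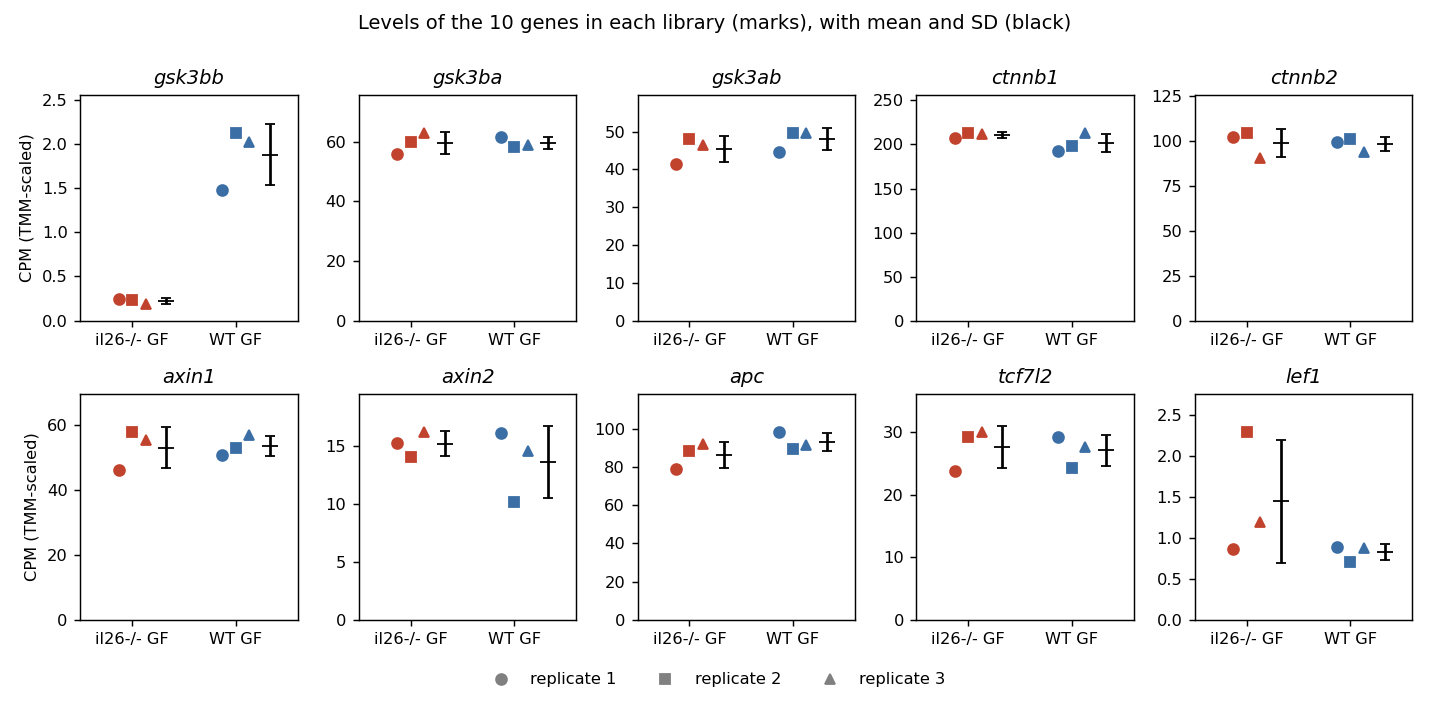
Each panel plots the level of 1 of the 10 genes in CPM, from 0, with *il26*-/- GF (red) left of WT GF (blue), a mark for each replicate and the mean with its SD in black. Only *gsk3bb* has groups that do not overlap, while *lef1* has 1 *il26*-/- GF library at 2.30 CPM above 5 libraries at 0.709 to 1.19 CPM.

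Of the 9 genes other than *gsk3bb*, 0 passed an adjusted p-value of 0.05 in edgeR's quasi-likelihood test, which called 0.00904% of all genes tested, the importin gene *ipo8* alone. DESeq2 and limma-voom also called 0 of the 9. Below an unadjusted p of 0.05 there was 1 of the 9, *lef1*, higher in *il26*-/- GF. Of all genes tested 5.32% were below this p, 3.06% higher and 2.27% lower in *il26*-/- GF. DESeq2 had 0 of the 9 below it and limma-voom 1. The groups did not overlap for 0 of the 9 genes, against 9.64% of all genes tested, 4.81% higher and 4.83% lower in *il26*-/- GF. Of the 9 fold changes 6 were above 0, as were 49.6% of those of all genes tested, and their median log2 fold change was 0.010, against -0.0011 over all genes tested. Apart from *lef1*, they lay between -0.11 for *apc* and 0.15 for *axin2*. In simulated counts with these depths and 200 changed genes among 10928 tested, 74.6% of genes changed 2-fold and 13.8% of those changed 1.5-fold were called. The simulated spread of each gene was the trend for its level, without what single genes vary beyond it. Whether a gene passes the adjustment also depends on how many other genes change, and only 1 gene was called in the real counts. For both reasons these shares may be too high for the real counts. For the 9 genes themselves, the confidence intervals given above excluded a 2-fold difference in either direction except for *lef1*. Apart from *lef1*, their lowest end was a log2 fold change of -0.33 for *apc* and their highest 0.56 for *axin2*. The interval of *lef1*, from 0.05 to 1.81, included a 2-fold difference. Differences within these intervals could have been missed.

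**Figure D3:**
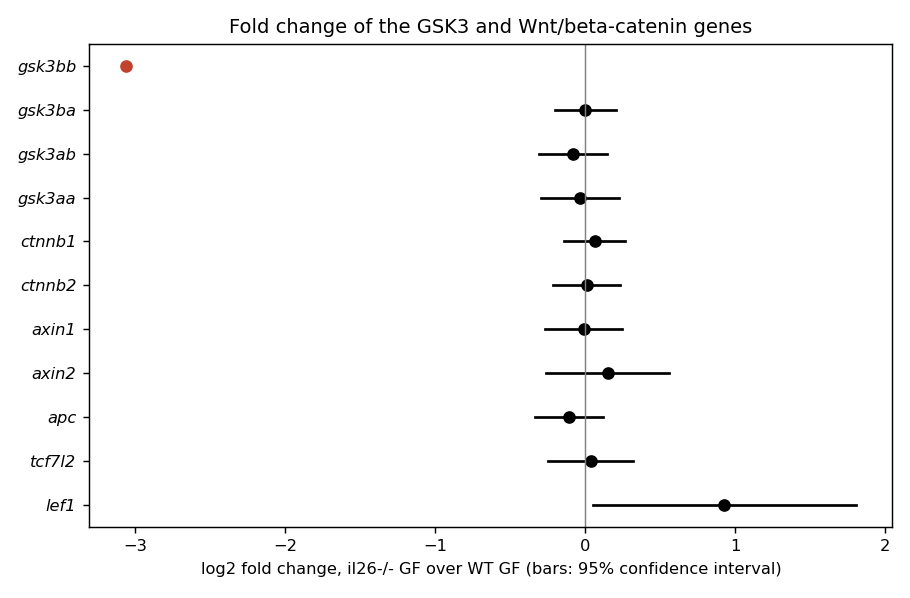
The points give the log2 fold change of *il26*-/- GF over WT GF for the 10 genes and *gsk3aa*, with bars for the 95% confidence interval, which is left out for *gsk3bb* because that gene was picked for its difference. *gsk3bb* stands at -3.06, the bar of *lef1* runs from 0.05 to 1.81, and all other bars include 0.

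The 10 genes also differed in how tightly the replicates agreed. The SD of log2 CPM within groups was 0.054 for *ctnnb1*, 0.070 for *gsk3ba*, 0.090 for *ctnnb2*, 0.095 for *apc* and 0.101 for *gsk3ab*, which were all below the median of 0.187 over the genes tested. It was 0.136 for *axin1* and 0.161 for *tcf7l2*. The values above that median belonged to *gsk3bb* at 0.215, *axin2* at 0.256 and *lef1* at 0.493, of which *gsk3bb* and *lef1* have few counts. Among the genes nearest to each in level, *gsk3bb* stood at the 6.19 percentile of this SD, *lef1* at the 65.5 percentile and *axin2* at the 82.4 percentile. The *gsk3bb* value comes from the same counts from which the gene was picked, with a prior count of 2 added. It is a description and is not read as a trait of the gene. The highest library was 1.13-fold the lowest for *gsk3ba*, 1.11-fold for *ctnnb1* and 1.59-fold for *axin2*, against 3.24-fold for *lef1*.

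Across the 6 libraries, the log2 CPM of the other 9 genes correlated with that of *gsk3bb* by a Pearson's r between -0.64 for *lef1* and 0.49 for *gsk3ab* and *apc*. This is a description over 6 libraries that differ in depth and in group. The 5 genes of those tested whose pattern was most like that of *gsk3bb* were *surf2* (r = 0.994), *zgc:123278* (0.979), *fam219b* (0.978), *ipo8* (0.977) and *stap2a* (0.974), none of them a pathway gene of the lists used here. Since *gsk3bb* was itself picked for being low in *il26*-/- GF, genes picked for likeness to it are low there by that choice. Their values are a description, with log2 fold changes of -0.13 for *surf2*, -0.57 for *zgc:123278*, -0.29 for *fam219b*, -2.09 for *ipo8* and -0.49 for *stap2a*. The likeness is one of pattern and not of size. Of the 20 genes tested that lie nearest to *gsk3bb*, 10 on each side in the order of the GRCz12tu assembly, 0 were lower in *il26*-/- GF without overlap, against 4.83% of all genes tested. Higher without overlap were *bcl9*, a nuclear partner in the pathway lists, and *zgc:175214*, against 4.81% of all genes tested. Below an unadjusted p of 0.05 were 2 of the 20, *lef1* and *zgc:175214*, both with values above 0, against 5.32% of all genes tested. The largest fold change among these neighbors was that of the collagen gene *col17a1a*, named after its values were seen, at a log2 fold change of -2.12 (SE 0.99, unadjusted p = 0.0659, edgeR's quasi-likelihood test). It had 1.97, 8.16 and 5.53 CPM in *il26*-/- GF and 18.3, 1.72 and 53.2 CPM in WT GF, so that its groups overlapped.

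The other genes of the pathway were followed through lists of ligands, receptors, inhibitors, destruction complex partners, nuclear partners, targets, adherens junction partners, and GSK3 regulators and substrates. Of 200 symbols listed, 147 were in the counts and 106 were tested. Below an unadjusted p of 0.05 were 6 of the 106 (5.66%, against 5.32% of all genes tested), 5 higher and 1 lower in *il26*-/- GF. Of all genes tested 3.06% were higher and 2.27% lower below this p, which also stands beside the counts of each list that follow. The adjustment in edgeR's quasi-likelihood test was passed by 0, where DESeq2 called 1, against 52 among all genes tested. The groups did not overlap for 17 of the 106 (16%, against 9.64% of all genes tested), 12 of them higher and 5 lower. Their median log2 fold change was 0.049, against -0.0011 for all genes tested, and 66 of the 106 were above 0, against 49.6% of all genes tested. The count of 6 was 4 without WT GF replicate 2, 12 without WT GF replicate 3 and 11 without *il26*-/- GF replicate 3. The count over all genes tested moved as well, from 589 to 552, 1133 and 728 in the same order.

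Ligands and the proteins that secrete them gave 1 of 7 genes below an unadjusted p of 0.05. *wls*, the carrier that brings Wnt proteins to the cell surface, had 44.2, 41.2 and 34.0 CPM in *il26*-/- GF and 38.0, 34.8 and 33.3 CPM in WT GF. *wnt5b*, a ligand best known for signaling without β-catenin, had 15.7, 15.2 and 14.5 CPM in *il26*-/- GF and 13.4, 12.3 and 13.6 CPM in WT GF, without overlap (log2 fold change 0.21, unadjusted p = 0.0710, edgeR's quasi-likelihood test). The gene with the unadjusted p-value under 0.05 was the ligand gene *wnt11*, named here after its values were seen, with 9.96, 17.1 and 7.86 CPM in *il26*-/- GF and 9.03, 4.61 and 4.21 CPM in WT GF. Its groups overlapped, with *il26*-/- GF replicate 2 the highest library. The *wnt11* log2 fold change was 1.01, and 0.58 (unadjusted p = 0.154, edgeR's quasi-likelihood test) without that library. Its unadjusted p was 0.0790 without WT GF replicate 2 and 0.0838 without WT GF replicate 3.

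The receptors and the R-spondin axis, which tunes how many receptors stay at the cell surface, gave 0 of 13 and 0 of 3 genes below an unadjusted p of 0.05. *fzd8a*, a Frizzled receptor, had 107, 71.3 and 102 CPM in *il26*-/- GF and 112, 69.7 and 106 CPM in WT GF, so that replicate 2 was the lowest in each group. The co-receptor gene *lrp5* had 49.1, 46.5 and 60.0 CPM in *il26*-/- GF and 49.5, 46.5 and 51.3 CPM in WT GF. *lgr4*, a receptor for R-spondins, had a log2 fold change of -0.07, and *znrf3*, which encodes a ubiquitin ligase that removes Frizzled receptors, one of 0.15. All 4 overlapped between the groups.

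Among the secreted inhibitors 1 of 8 genes were below an unadjusted p of 0.05. *wif1*, which encodes a secreted protein that binds Wnt ligands, had 62, 341 and 107 counts in *il26*-/- GF and 77, 69 and 145 counts in WT GF. These were 7.63, 8.70 and 6.73 CPM in *il26*-/- GF and 3.80, 3.49 and 4.73 CPM in WT GF, with all 3 *il26*-/- GF libraries above all WT GF libraries. Its log2 fold change was 0.94 (SE 0.17), and its adjusted p was 0.336 by edgeR's quasi-likelihood test and 0.0223 by DESeq2. It was the gene of these lists with the smallest p-value.

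The partners of the destruction complex and the nuclear partners of β-catenin had 1 of 14 and 0 of 19 genes below an unadjusted p of 0.05. That gene was *dvl1b*, which encodes a Dishevelled protein that passes the signal from the receptor to the complex, with 0.984, 1.58 and 1.01 CPM in *il26*-/- GF and 0.691, 0.810 and 0.489 CPM in WT GF (log2 fold change 0.94, SE 0.33, adjusted p = 0.833, edgeR's quasi-likelihood test). Its groups did not overlap, with 8, 62 and 16 counts in *il26*-/- GF and 14, 16 and 15 counts in WT GF. In *il26*-/- GF replicate 1, its lowest library of that group, 1 count was 0.123 CPM. Without *il26*-/- GF replicate 2 its log2 fold change was 0.61 (unadjusted p = 0.162, same test), and its unadjusted p was 0.0786 without WT GF replicate 3 and 0.0676 by DESeq2. Of the nuclear partners with the highest levels, the chromatin remodeler gene *smarca4a* had a log2 fold change of -0.11 and the β-catenin cofactor gene *bcl9l* one of 0.07. Without overlap, 4 of the 19 nuclear partners were higher and 0 lower in *il26*-/- GF, against 4.81% and 4.83% of all genes tested. A log2 fold change above 0 was found for 14 of the 19, against 49.6% of all genes tested. For the adherens junction, where β-catenin links cadherins to the cytoskeleton, 0 of 7 genes were below an unadjusted p of 0.05, and *cdh1*, the epithelial cadherin, had 274, 295 and 286 CPM in *il26*-/- GF and 280, 266 and 274 CPM in WT GF. The gene of its partner α-catenin, *ctnna1*, had a log2 fold change of -0.00094.

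The target genes had 2 of 20 genes below an unadjusted p of 0.05, both higher in *il26*-/- GF, against 3.06% of all genes tested that were higher below this p. *ccnd1*, the cyclin of entry into the cell cycle, had 89.7, 83.5 and 71.8 CPM in *il26*-/- GF and 64.9, 55.5 and 61.3 CPM in WT GF (log2 fold change 0.43, SE 0.11, adjusted p = 0.563, edgeR's quasi-likelihood test). *sox9b*, a transcription factor gene of progenitors, had 11.1, 11.6 and 11.2 CPM in *il26*-/- GF and 8.78, 8.0005 and 9.69 CPM in WT GF (log2 fold change 0.36, SE 0.12, adjusted p = 0.741). Neither overlapped between the groups and neither passed the adjustment. The unadjusted p of *sox9b* was 0.0165, against 0.0557 without *il26*-/- GF replicate 2 and 0.0584 without WT GF replicate 2 (same test). The target *axin2*, described above, did overlap. Without overlap, 3 of the 20 were higher and 2 lower in *il26*-/- GF, against 4.81% and 4.83% of all genes tested. Among the lower was *nkd1*, at a log2 fold change of -0.25, described further below. A log2 fold change above 0 was found for 13 of the 20, against 49.6% of all genes tested.

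Of the 16 regulators and substrates of GSK3, 1 were below an unadjusted p of 0.05. It was *mcl1b*, a pro-survival gene of the BCL2 family whose mammalian protein is marked for degradation by GSK3, with 42.1, 47.4 and 44.3 CPM in *il26*-/- GF and 54.4, 64.9 and 51.3 CPM in WT GF. All *il26*-/- GF libraries were below all WT GF libraries, at a log2 fold change of -0.35 (SE 0.11, adjusted p = 0.741, edgeR's quasi-likelihood test). Its unadjusted p was 0.0164, against 0.0557 without *il26*-/- GF replicate 1 and 0.0646 without WT GF replicate 2. The median log2 fold change of the 16 genes was -0.07, and 4 of them were above 0, against 49.6% of all genes tested. Without overlap, 1 of the 16 was higher and 3 were lower in *il26*-/- GF, against 4.81% and 4.83% of all genes tested.

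**Figure D4:**
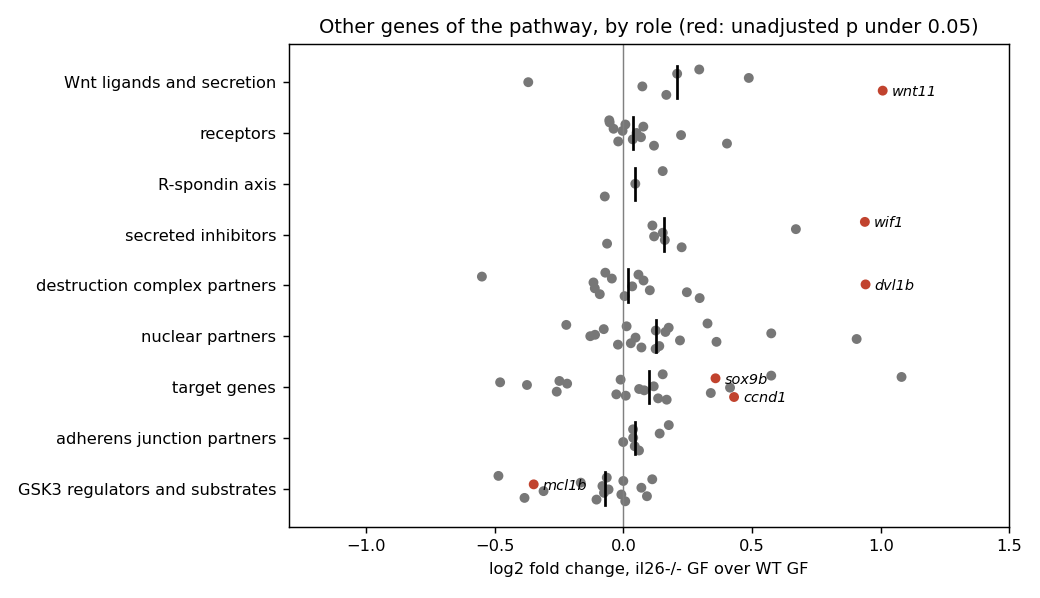
Each point is the log2 fold change of *il26*-/- GF over WT GF for 1 other gene of the pathway, arranged by role from top to bottom (*znrf3* and *tcf7* stand in 2 lists each and *gsk3aa* is left out), with red for an unadjusted p below 0.05 and a black line for the median of each list. The 6 red points are named, 5 to the right of 0 and *mcl1b* to the left, and none passed the adjustment for all genes tested.

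Markers of other cell types that could move with these genes were summed in each library. For 19 skeletal muscle genes the sum was 2329 to 3666 CPM in *il26*-/- GF and 1461 to 2629 CPM in WT GF, with overlap. The overlap came from WT GF replicate 3, at 2629 CPM, against 1544 and 1461 CPM in WT GF replicates 1 and 2. Of the 19, 12 were higher in *il26*-/- GF below an unadjusted p of 0.05, against 3.06% of all genes tested. Without overlap, 11 of the 19 were higher and 0 lower, against 4.81% and 4.83% of all genes tested. A log2 fold change above 0 was found for 15 of the 19. Others went the other way, such as *pvalb1* at a mean of 114 CPM in *il26*-/- GF and 177 CPM in WT GF, with overlap. The defining muscle genes *ckma*, *mylpfa*, *tnnc2*, *pvalb2* and *casq1a* were at or near 0 counts in every library, which as above is not read as absence, and others of the list were abundant, such as *actc1b* at a mean of 883 CPM in *il26*-/- GF and 608 CPM in WT GF. Genes of proliferating cells summed to 569 to 685 CPM in *il26*-/- GF and 367 to 793 CPM in WT GF, so that the groups overlapped. Of these 15 genes 0 were below an unadjusted p of 0.05. A log2 fold change above 0 was found for 14, against 49.6% of all genes tested, and the median was 0.22. Epithelial genes summed to 29047 to 30851 CPM in *il26*-/- GF and 28191 to 34941 CPM in WT GF, also with overlap. Genes of blood cells summed to 89.1 to 98.02 CPM in *il26*-/- GF and 101 to 122 CPM in WT GF, without overlap. Of the 10 tested, 1 was higher and 2 were lower in *il26*-/- GF below an unadjusted p of 0.05, against 3.06% and 2.27% of all genes tested. Without overlap, 2 of the 10 were higher and 1 was lower, against 4.81% and 4.83%, so single genes did not all follow the sum. Genes of neurons summed to 239.7 to 279.7 CPM in *il26*-/- GF and 272 to 301 CPM in WT GF, with overlap. Of the 21 neuronal genes tested 2 had a log2 fold change above 0, against 49.6% of all genes tested, and the median was -0.21. In *il26*-/- GF 4 were lower without overlap, against 4.83% of all genes tested. Below an unadjusted p of 0.05, 2 were lower, against 2.27%. The sums of smooth muscle and mesenchyme, exocrine pancreas and hepatocyte genes overlapped between the groups. The part of these markers in the values of *gsk3bb*, *lef1*, *wif1*, *ccnd1* and *sox9b* was not tested.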

How the data were processed

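The authors sequenced stranded mRNA libraries with paired-end reads, checked them with FastQC 0.11.8, aligned them to danRer11 and deposited unnormalized counts of reads for each gene symbol. The aligner, counting tool, annotation and strand setting are not given in the sources used here. All 6 columns of counts matched a library, 0 columns were unused, and 0 rows were blank or summary rows.

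Genes were kept by edgeR's filterByExpr (11062 of 15419, minimum count 10), scaled by TMM and tested with edgeR 4.0.16's quasi-likelihood test without a block in R 4.3.3 (limma 3.58.1, *il26*-/- GF over WT GF), with p-values adjusted over all genes by the Benjamini-Hochberg method. Log2 CPM used a prior count of 2. The test was tried on simulated counts. Summed levels and shares were compared by exact permutation tests over libraries. Alternatives were other scalings, filters and tests (DESeq2 1.42.0, limma-voom), the replicate number as a block and each library left out.

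The genes and lists were chosen with earlier results of these data known. Named were all 10 genes, every other GSK3 gene, and in each list the genes with an unadjusted p-value under 0.05 without overlap (at most 4, or the 2 with the highest mean CPM where there was none), and the 5 genes correlating best with *gsk3bb*. Gene order came from the RefSeq table of GRCz12tu. Intervals of single counts cover counting error only.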

Additional observations from a re-analysis of the deposited data

How the results depend on the processing

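The log2 fold change of *gsk3bb* lay between -3.19 and -2.91 in all 13 alternatives that gave a value. This range comes from the same counts from which the gene was picked, so it is a description and no support for the difference. *gsk3bb* and *lef1* had no value when at least 10 counts were required in every library. Of the other 9 genes, 0 were called under each alternative. Over all genes tested, 1 gene was called, against 4 with upper quartile scaling, 2 with total counts only, 4 with a filter of at least 1 count, 52 by DESeq2 and 0 to 3 with a library left out. DESeq2 called 1 gene of the pathway lists, *wif1*. Scaling by total counts moved the genes with an unadjusted p-value under 0.05 to 442 higher and 108 lower in *il26*-/- GF, against 338 and 251 with TMM, and shifted the median log2 fold change of all genes tested by 0.085. The sum of *gsk3aa*, *gsk3ab* and *gsk3ba* then had a log2 ratio of 0.053, against -0.037, and -0.058 to 0.0084 with a library left out.

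Values near 0 changed sign. With total counts only they were 0.073 for *axin1*, 0.0037 for *gsk3ab*, 0.053 for *gsk3aa*, 0.041 for *fzd8a*, 0.013 for *lgr4* and 0.091 for *ctnna1*. With upper quartile scaling they were 0.014 for *axin1* and 0.023 for *ctnna1*, by DESeq2 0.0010 for *ctnna1*, and with at least 1 count -0.0029 for *gsk3ba*. With a library left out the ranges were -0.034 to 0.045 for *gsk3ba*, -0.032 to 0.080 for *ctnnb2*, -0.076 to 0.082 for *axin1*, -0.014 to 0.29 for *axin2*, -0.028 to 0.13 for *tcf7l2*, -0.077 to 0.013 for *gsk3aa*, -0.22 to 0.13 for *fzd8a*, -0.035 to 0.15 for *lrp5*, -0.13 to 0.0027 for *lgr4* and -0.082 to 0.045 for *ctnna1*. The cause of these changes was not tested beyond the scaling.

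Replicates of one number deviated together by r = 0.179, 0.0957 and 0.304 over genes, and 5 of 6 libraries correlated best with their own number, a hint from the data and not from the design. With replicate number as a block in the fit, 15 genes were called, *gsk3bb* had a log2 fold change of -3.13 and *lef1* one of 0.81 (unadjusted p = 0.0895, edgeR's quasi-likelihood test), and 0 of the 9 other genes and 0 genes of the pathway lists were called. Depth limits *gsk3bb*, whose *il26*-/- GF counts were 2, 9 and 3.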

Other observations

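Among pathway genes that the rule for naming did not reach, and chosen after their values were seen, *gbp*, a GSK3-binding inhibitor homologous to mammalian FRAT, had 29.3, 77.1 and 31.6 CPM in *il26*-/- GF and 94.2, 89.4 and 21.1 CPM in WT GF (log2 fold change -0.55, SE 0.58). Its low libraries were *il26*-/- GF replicates 1 and 3 and WT GF replicate 3, so they did not follow the genotype. The same 3 libraries were the lowest for the MYC genes *mych*, with 72.4, 198 and 73.6 CPM in *il26*-/- GF and 235, 187 and 60.9 CPM in WT GF, and *mycb*, with 22.8, 51.3 and 22.4 CPM in *il26*-/- GF and 49.4, 46.1 and 18.8 CPM in WT GF. They were also the lowest for *sgk1*, a kinase gene induced by glucocorticoids, with 168.5, 292 and 170 CPM in *il26*-/- GF and 329.8, 371 and 183 CPM in WT GF. The MYC gene *myca* had the same 3 lowest libraries, with 28.7, 40.2 and 25.6 CPM in *il26*-/- GF and 48.2, 47.0 and 28.2 CPM in WT GF. *axin2*, also a target, did not show this split.

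Secreted and intracellular feedback inhibitors of the pathway gave values in both directions. *nkd1*, an inhibitor that Wnt signaling itself induces, had 19.3, 19.8 and 22.4 CPM in *il26*-/- GF and 26.9, 22.9 and 23.4 CPM in WT GF, with all *il26*-/- GF libraries below all WT GF libraries (log2 fold change -0.25). *notum1a*, which encodes an enzyme that removes the lipid of Wnt proteins and had too few counts to be tested, had 8, 41 and 6 counts in *il26*-/- GF and 5, 3 and 11 counts in WT GF. All *il26*-/- GF libraries, at 0.377 to 1.05 CPM, were above the WT GF libraries, at 0.152 to 0.359 CPM. The gap between replicate 3 of *il26*-/- GF and replicate 3 of WT GF was less than 1 count, which was 0.0629 CPM in that *il26*-/- GF library. Of all genes tested 4.81% were higher in *il26*-/- GF without overlap.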
